A study of Mus musculus with 13 samples.

Results

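The 7 genes described here encode sodium channel subunits and the proteins that hold sodium channels in place: the pore-forming subunits Scn10a and Scn4a, the beta subunits Scn2b, Scn3b and Scn4b, the cytoskeletal anchor Ank3, and Fgf13, an FGF homologous factor. They were chosen by name out of the 26264 genes listed in each table. The rows came from RNA sequencing of mouse right ventricle, with 6 wild-type libraries and 7 libraries from animals in which Dsg2 F536C, a substitution in the desmosomal cadherin desmoglein 2, had been knocked in. The study asks how PPAR-gamma bears on fibrosis, fat and rhythm disturbance in such mice, and neither group of libraries is labelled as drug-treated. Zygosity, sex, age and any batch are not labelled, and no label ties a library to its own animal. The p-values thus reflect only variation among these libraries, which may be technical.

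A voltage-gated sodium channel is built around a large alpha subunit that forms the pore and senses voltage, and its opening carries the upstroke of the action potential in working myocardium and in the conduction system. Beta subunits are small single-pass membrane proteins with an immunoglobulin-like outer domain that tune gating, surface expression and adhesion. Ankyrin-G, the product of Ank3, ties channels to the spectrin-actin skeleton and takes part in holding them at the intercalated disc, the junction where desmosomes also sit. FGF homologous factors such as Fgf13 are not secreted, bind the cytoplasmic tail of the alpha subunit and shift its inactivation.

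The stretches of 250 bases upstream of the annotated start of 4 members are printed because these genes set the main contrast of the data: Scn10a, Scn4a and Scn4b were among the members lower in knock-in, while Scn2b, annotated on the same strand of chromosome 9 close to Scn4b, was not. RefSeq's table for build GRCm38.p6 held 5 of the 7 members, and the deposited tables use GRCm39, so these positions belong to the older build only. Sequences run 5′ to 3′ on the strand of the gene, and capitals mark matches to the motifs described after them.
Scn10a (chr9:119719033-119719282, minus strand): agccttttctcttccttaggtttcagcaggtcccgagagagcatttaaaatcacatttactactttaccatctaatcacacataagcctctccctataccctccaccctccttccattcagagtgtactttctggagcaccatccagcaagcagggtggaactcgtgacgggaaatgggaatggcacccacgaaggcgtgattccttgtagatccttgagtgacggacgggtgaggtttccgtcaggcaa
Scn4a (chr11:106349391-106349640, minus strand): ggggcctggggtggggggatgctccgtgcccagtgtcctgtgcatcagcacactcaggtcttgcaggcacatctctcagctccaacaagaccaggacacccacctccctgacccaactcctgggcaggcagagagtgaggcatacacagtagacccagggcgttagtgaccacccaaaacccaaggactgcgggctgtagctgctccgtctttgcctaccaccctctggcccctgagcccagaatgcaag
Scn4b (chr9:45138374-45138623, plus strand): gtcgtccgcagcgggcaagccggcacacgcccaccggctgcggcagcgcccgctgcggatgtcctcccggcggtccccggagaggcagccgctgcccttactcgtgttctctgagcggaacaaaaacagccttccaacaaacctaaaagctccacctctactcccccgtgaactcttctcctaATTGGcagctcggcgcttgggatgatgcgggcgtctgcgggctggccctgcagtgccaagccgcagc
Scn2b (chr9:45117626-45117875, plus strand): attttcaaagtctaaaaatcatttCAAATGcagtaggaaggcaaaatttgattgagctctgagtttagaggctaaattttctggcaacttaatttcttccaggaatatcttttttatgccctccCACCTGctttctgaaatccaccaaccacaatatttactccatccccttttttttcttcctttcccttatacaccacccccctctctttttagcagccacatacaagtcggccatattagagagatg

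Motifs were searched on both strands: the TATA box TATAAA, the CCAAT box CCAAT, the GC box GGGCGG, the T-box core AGGTGT, the GATA site AGATAA, the E-box CANNTG and the MEF2 core TAAAAATA. Among 27025 genes, windows of the same length held them in 13%, 34.5%, 32.9%, 12.0%, 10.3%, 66.0% and 2.48%. The Scn4b window held 1 CCAAT match and the Scn2b window 2 E-box matches, and neither held any other of these motifs. The Scn10a and Scn4a windows held 0 matches. Bases just after the annotated start were found in the transcript sequences searched for Scn4a, Scn4b and Scn2b but not for Scn10a, so the Scn10a start is less certain. The G and C share was 66.0% upstream of Scn4b, 38.4% upstream of Scn2b, 49.6% upstream of Scn10a and 61.6% upstream of Scn4a, against a median of 52.0% over all windows. Fgf13, which was also lower, has 4 annotated starts in that table, and its windows are not printed. A match is a description of the window only.

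Totals ran from 14498336 to 29848597 estimated reads per library. Knock-in 4, 5 and 6 stood apart: the share of read numbers that were not whole was 10.2% to 10.7% in them and 3.07% to 3.79% elsewhere, and the epithelial keratin Krt8 lay at 909 to 1190 CPM (reads scaled by TMM-adjusted library size) in them against at most 6.38. Each test between the genotypes is therefore given with all 13 libraries and again with the 10 that remain. Dsg2, the targeted gene, ran from 84.3 to 116 CPM in wild type and from 33.4 to 61.9 CPM in knock-in. Defining genes of cardiomyocytes were present throughout: the summed TPM (reads scaled by gene length and library) of 10 of them ran from 69390 to 93490 in wild type and from 39400 to 67410 in knock-in, and 10 of 10 were called lower with 13 libraries and 9 of 10 with 10. In bulk tissue, fewer cells of a type and less RNA per cell cannot be told apart.

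Of the 7 members, all tested in both sets, 4 were lower in knock-in and 0 higher, with the same 4 in both sets: Scn10a, Scn4a, Scn4b and Fgf13. A call is an adjusted p under 0.05 in edgeR's quasi-likelihood test with Benjamini-Hochberg adjustment over all tested genes. By that rule 44.6% of all tested genes were called with 13 libraries, 23.6% higher and 21.0% lower, and 43.7% with 10, 22.3% higher and 21.3% lower. At an unadjusted p under 0.05, 0 members were higher with 13 libraries and 1, Scn3b, with 10; DESeq2 called 0 higher in both sets and limma-voom 1, Scn3b. The 4 genes that were lower had no overlap in CPM between the groups, each knock-in library lying below each wild-type one. The share of all tested genes without such overlap was not counted, so the separation is not set against a background. Ank3, Scn3b and Scn2b overlapped between the groups and did not pass the test.

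**Figure D1:**
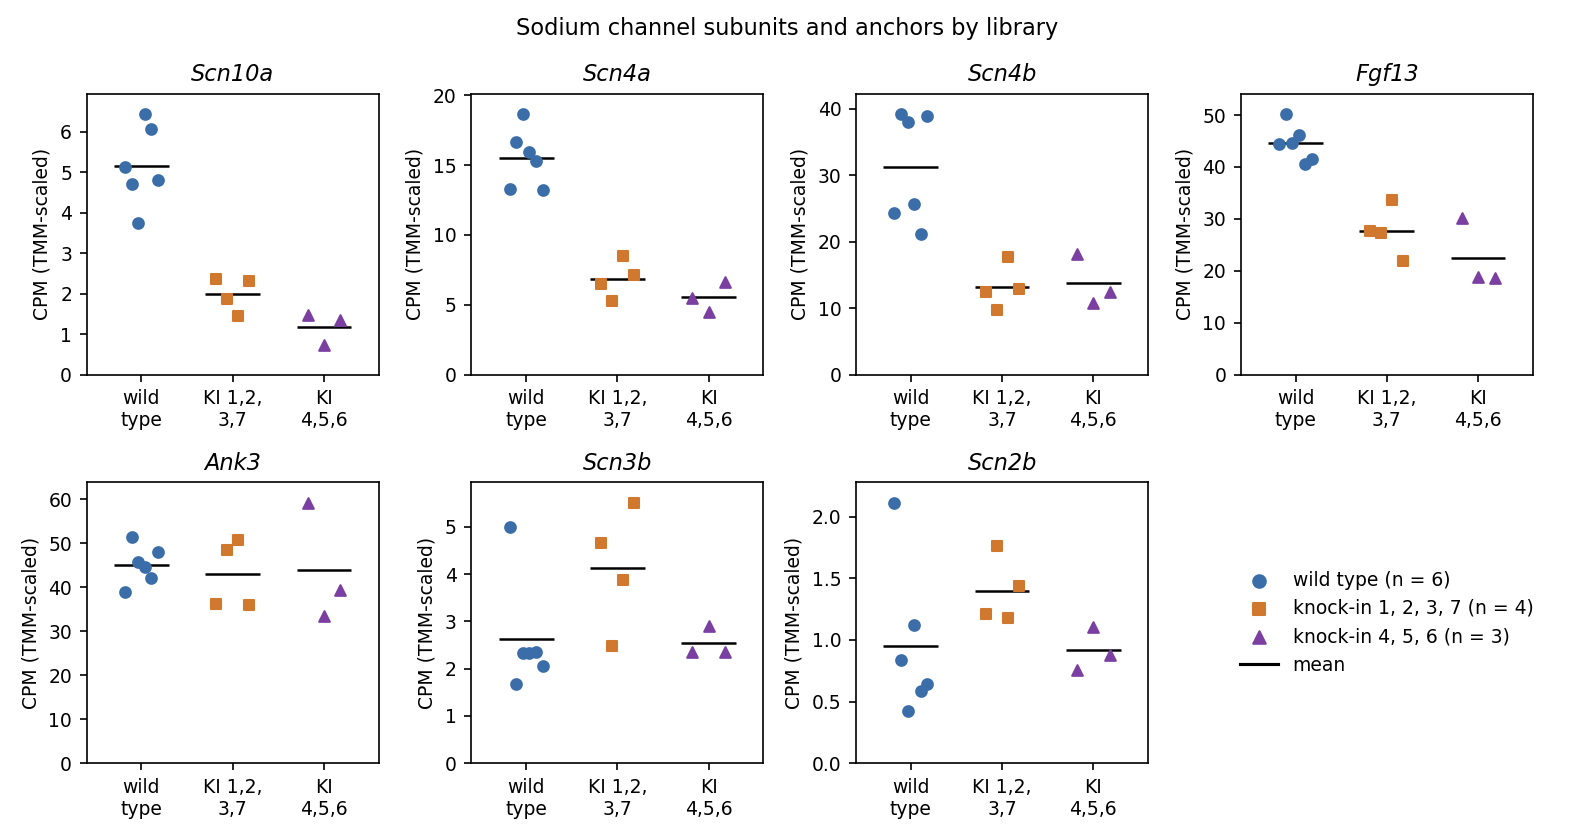
TMM-scaled CPM (y axis, from 0) of each member in each of 13 libraries, grouped on the x axis as wild type, knock-in 1, 2, 3 and 7, and knock-in 4, 5 and 6. Each point is 1 library and the line the mean of its group. For Scn10a, Scn4a, Scn4b and Fgf13 all knock-in points lie below all wild-type points, while wild type 1 is the highest wild-type point for Scn3b, at 4.99, and for Scn2b, at 2.11.

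Among the alpha subunits, Scn10a, known from sensory neurons and from studies of cardiac conduction, was lower in knock-in. Its estimated change was the largest of the 7 in both edgeR fits, but this rank depended on the libraries and the setting. With 10 libraries those of Scn4a and Scn4b were larger without knock-in 3 (-1.23 for Scn10a, -1.29 for Scn4a and -1.42 for Scn4b). The same held there with a block for replicate number (-1.26, -1.27 and -1.35). That of Scn4b was also larger there without wild type 4 (-1.30 against -1.27) and without wild type 5 (-1.34 against -1.30). On log2(TPM + 1) those of Scn4a and Scn4b were larger in both sets (-0.45, -0.58 and -0.66 with 13 libraries). The ratios of Scn10a to Scn4a and Scn4b did not pass the test. It lay at 3.75, 4.98 and 6.44 CPM in wild type (lowest, median and highest of 6) and at 0.724, 1.47 and 2.37 CPM in knock-in (of 7). The lowest wild-type library, number 3, was still above the highest knock-in library, number 1. The means were 5.15 ± 0.974 and 1.65 ± 0.583 CPM (SD, n = 6 and 7), a 3.12-fold difference. On the log2 scale it changed by -1.64 ± 0.25 (SE, adjusted p = 0.000195, edgeR) with 13 libraries and -1.35 ± 0.20 (adjusted p = 0.000169) with 10. These values rest on few reads, 53 to 121.05 per wild-type library and 19 to 66.02 per knock-in library.

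Scn4a, the alpha subunit best known from skeletal muscle, lay at 13.2, 15.6 and 18.6 CPM in wild type and at 4.49, 6.49 and 8.52 CPM in knock-in. The gap between the groups was wider than the whole spread of the knock-in libraries. The means were 15.5 ± 2.07 and 6.29 ± 1.34 CPM (SD, n = 6 and 7), and the change in log2 -1.30 ± 0.15 (SE, adjusted p = 3.37e-05, edgeR), or -1.18 ± 0.14 (adjusted p = 3.95e-05) with 10 libraries. Of the genes listed for skeletal muscle, Myog was at 0 in every library. The skeletal actin gene Acta1, which cardiomyocytes can also express, moved the other way, from 10.3 to 31.6 TPM in wild type to 264 to 1120 TPM in knock-in. The summed TPM of the 10 skeletal muscle genes ran from 1103 to 1649 in wild type and from 1080 to 2059 in knock-in, with 1 called higher and 3 lower of 6 tested in both sets. In wild type that sum was mostly Ckm, at 1080 to 1610 TPM, against 787 to 1290 TPM in knock-in. Mylpf ran from 2.56 to 4.36 TPM in wild type and from 1.30 to 2.86 TPM in knock-in. Myh1, Myh2 and Myh4 were at most 0.182 TPM in any library.

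Scn4b, the beta subunit that joins alpha subunits through a disulphide bond, lay at 21.2, 31.9 and 39.2 CPM in wild type and at 9.74, 12.4 and 18.2 CPM in knock-in. The wild-type libraries formed a lower and an upper trio, with replicates 1, 4 and 5 at 21.2 to 25.8 CPM and replicates 2, 3 and 6 at 38.1 to 39.2 CPM. Every knock-in library lay below the lower trio. The means were 31.3 ± 8.34 and 13.4 ± 3.27 CPM (SD, n = 6 and 7), and the change in log2 -1.22 ± 0.19 (SE, adjusted p = 0.000252, edgeR), or -1.25 ± 0.21 (adjusted p = 0.000559) with 10 libraries. On the TPM scale the groups overlapped, the lowest wild-type library being at 4.47 TPM and the highest knock-in library at 5.47 TPM.

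Fgf13 was the most abundant member per length in every library. It lay at 40.6, 44.5 and 50.1 CPM in wild type, a narrow range, and at 18.6, 27.3 and 33.6 CPM in knock-in. The means were 44.6 ± 3.40 and 25.4 ± 5.80 CPM (SD, n = 6 and 7), a 1.76-fold difference and the smallest among the 4 calls of the edgeR fit. In log2 it changed by -0.81 ± 0.14 (SE, adjusted p = 0.000511, edgeR) with 13 libraries and -0.70 ± 0.11 (adjusted p = 0.000221) with 10. On the TPM scale its groups overlapped too, with the lowest wild-type library at 17.8 TPM and the highest knock-in library at 20.1 TPM.

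Ank3 did not pass the test and its direction depended on the scaling. It lay at 39.0, 45.1 and 51.4 CPM in wild type and at 33.5, 39.3 and 59.1 CPM in knock-in, so that the knock-in libraries reached both below and above the wild-type range. The estimated difference in log2 was -0.06 ± 0.14 (SE, adjusted p = 0.750, edgeR) with 13 libraries and -0.07 ± 0.11 (adjusted p = 0.627) with 10. Scaled by library totals alone it was 0.18 (adjusted p = 0.235) and 0.17 (adjusted p = 0.223), and that scaling moved the median of all tested genes from 0.08 to 0.33 and from 0.02 to 0.26. Of all genes called with 13 libraries, 52.9% were higher with TMM and 78.6% with library totals.

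Scn3b, a beta subunit without the disulphide bond, lay at 1.68, 2.34 and 4.99 CPM in wild type and at 2.35, 2.90 and 5.51 CPM in knock-in. Wild type 1 alone was at 4.99 CPM, the other 5 wild-type libraries at or below 2.35, which is where the lowest knock-in library lay. The estimated difference in log2 was 0.39 ± 0.29 (SE, adjusted p = 0.286, edgeR) with 13 libraries and 0.65 ± 0.29 (adjusted p = 0.0872, unadjusted p = 0.0437) with 10. Without wild type 1 it was 0.68 (adjusted p = 0.0489) and 0.96 (adjusted p = 0.00423), and without knock-in 2 it was 0.82 (adjusted p = 0.0362) with the 10. It was also called higher with limma-voom, at 0.75 (adjusted p = 0.00873) and 0.83 (adjusted p = 0.00711).

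Scn2b, the other disulphide-linked beta subunit of the 3, was close to the limit of detection, with 6 to 44 reads per wild-type library and 18 to 41 per knock-in library. It lay at 0.425, 0.741 and 2.11 CPM in wild type and at 0.757, 1.18 and 1.76 CPM in knock-in. Wild type 1 was again the highest, above every knock-in library. The estimated difference in log2 was 0.29 ± 0.34 (SE, adjusted p = 0.505, edgeR) with 13 libraries and 0.51 ± 0.37 (adjusted p = 0.282) with 10. Without wild type 1 it was 0.69 (adjusted p = 0.0704) and 0.92 (adjusted p = 0.0216).

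Wild type 1 also held more RNA of neuronal genes than the other wild-type libraries. The summed TPM of 9 neuronal genes was 62.26 in it, against 16.4 to 20.66 in the other 5 and 34.45 to 57.1 in knock-in. Snap25, a synaptic vesicle fusion protein, was at 7.44 TPM in wild type 1 and Prph, the neuronal filament peripherin, at 7.78 TPM. In knock-in 1, 2, 3 and 7 Snap25 was at most 0.144 TPM, Th, which makes catecholamines, was at 0, and Prph ran from 0.650 to 1.12 TPM. The wild-type medians were 0.036 TPM for Snap25, 0 for Th and 0.28 for Prph. Medians in these knock-in libraries were higher than in wild type for Stmn2 (10.8 against 7.92 TPM) and Nefl (0.182 against 0.045). They were lower for Dbh (1.28 against 1.99 TPM) and Phox2a (0.206 against 0.473). The neuronal sum of knock-in 1, 2, 3 and 7 was made up mostly of Uchl1, at 29.2 to 44.6 TPM against 6.59 to 23.0 TPM in wild type. Of 4 neuronal genes tested, 1 was called higher and 1 lower in both sets. Wild type 1 also had the highest wild-type sums of adipocyte genes (125.2 TPM against 13.05 to 33.59) and atrial genes (4860 against 737 to 1950). The same held for conduction system genes (20.83 against 11.4 to 16.57) and, by less, for Schwann cell and endothelial genes. Its sums of fibroblast, macrophage, epithelial, skeletal muscle, and pericyte and smooth muscle genes were not the highest. The part of any of these RNAs, neuronal or other, in the values of Scn3b and Scn2b was not tested.

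**Figure D2:**
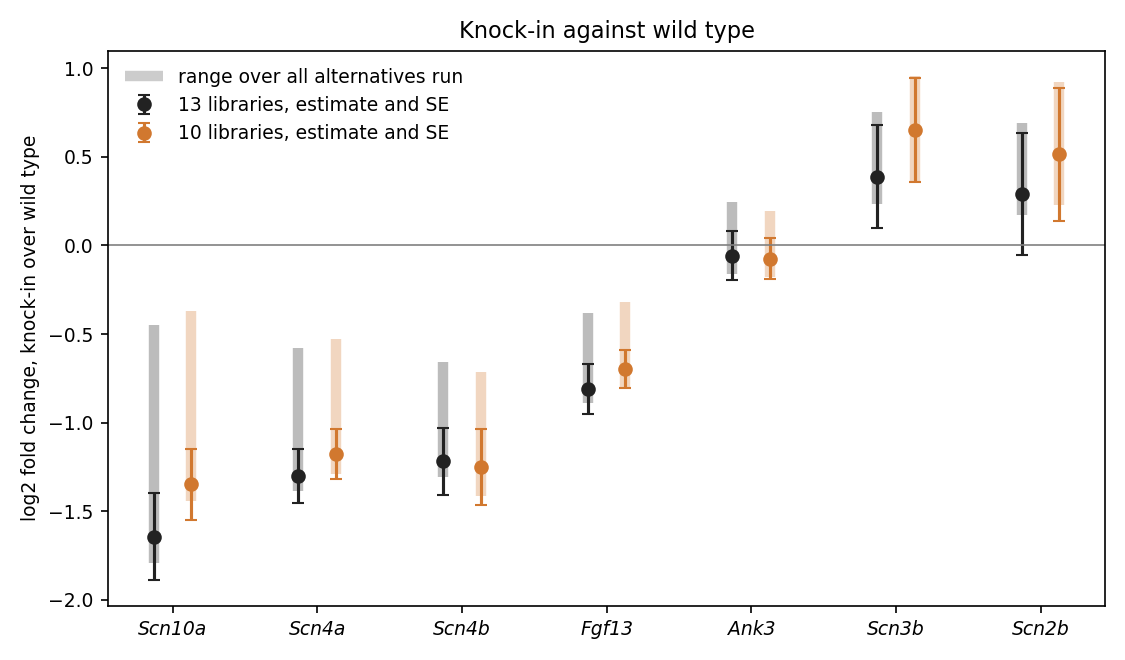
Log2 fold change of each member, knock-in over wild type (y axis), with all 13 libraries (black) and with the 10 without knock-in 4, 5 and 6 (orange). Points are edgeR estimates, error bars are SE, and pale bars span all alternative settings, libraries left out included. The bars of Scn10a, Scn4a, Scn4b and Fgf13 stay below 0, those of Scn3b and Scn2b above 0, and those of Ank3 cross 0.

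Per length, the order of the members differed between the groups. The wild-type medians were 20.9 TPM for Fgf13, 7.19 for Scn4b, 5.67 for Ank3, 2.50 for Scn4a, 0.915 for Scn10a, 0.567 for Scn3b and 0.190 for Scn2b. The ranges of the neighbours Scn4b and Ank3, Scn10a and Scn3b, and Scn3b and Scn2b overlapped. In knock-in the medians were 15.8 TPM for Fgf13, 6.94 for Ank3, 4.12 for Scn4b, 1.38 for Scn4a, 1.104 for Scn3b, 0.379 for Scn2b and 0.324 for Scn10a, with overlapping ranges for Scn4a and Scn3b and for Scn2b and Scn10a. Scn10a and Scn2b could not be ordered in knock-in, Scn2b being the higher in 3 of 7 libraries against 0 of 6 in wild type. In knock-in 1, 2, 3 and 7 alone the medians were 16.6 TPM for Fgf13, 6.70 for Ank3, 3.95 for Scn4b, 1.503 for Scn3b, 1.496 for Scn4a, 0.456 for Scn10a and 0.431 for Scn2b, with overlapping ranges for Scn3b and Scn4a and for Scn10a and Scn2b. Ank3 exceeded Scn4b in 2 of 6 wild-type and 7 of 7 knock-in libraries, and Scn3b exceeded Scn10a in 1 of 6 and 7 of 7. Both orders also held in 4 of 4 of knock-in 1, 2, 3 and 7.

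Among the 3 beta subunit members, the make-up of their RNA shifted away from Scn4b. Beta subunit genes that are not members are left out of these shares. Of the summed TPM of Scn4b, Scn3b and Scn2b, Scn4b made up 87.8% ± 6.61 in wild type and 71.8% ± 7.73 in knock-in (SD, n = 6 and 7, exact permutation test, two-sided, adjusted p = 0.00612 over the 3 shares). Scn3b went from 9.22% ± 4.63 to 21.2% ± 6.57 (exact permutation, adjusted p = 0.00612). Scn2b went from 2.97% ± 2.10 to 6.92% ± 2.87 (exact permutation, adjusted p = 0.0128). The Scn4b share was below every wild-type share in 5 of 7 knock-in libraries, knock-in 4 and 6 lying above wild type 1. With 10 libraries the knock-in shares were 67.5% ± 5.81, 24.6% ± 6.18 and 7.89% ± 3.31 (SD, n = 4, exact permutation, adjusted p = 0.00714, 0.00714 and 0.0190). Such a share does not depend on the scaling between libraries, and the 3 shares of a library add up to the whole.

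**Figure D3:**
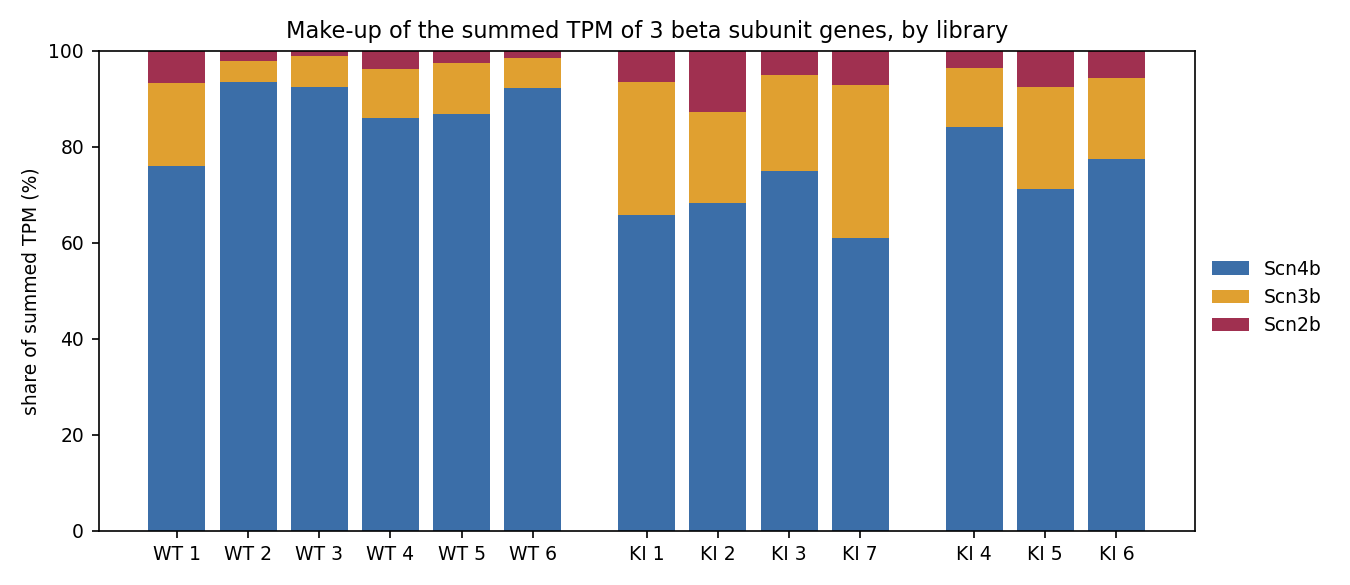
Share of Scn4b, Scn3b and Scn2b in their summed TPM (y axis, percent) for each of 13 libraries (x axis; WT, wild type; KI, knock-in). Each bar is 1 library; the Scn4b part runs from 76.0% to 93.4% in wild type and from 61.1% to 84.1% in knock-in.

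The log2 ratios of all 21 pairs of members, which also need no scaling between libraries, were compared as an addition made after seeing the data. All 12 pairs that joined a member called lower with one that was not called differed between genotypes with 13 libraries and with 10 (exact permutation tests, two-sided, adjusted over 21 pairs), with differences of 0.65 to 2.19 and of 0.53 to 2.11 in size (log2). These pairs include Scn10a over Scn3b, which differed by -2.09 (adjusted p = 0.00306, exact permutation) and by -2.04 with 10 libraries (adjusted p = 0.0143). Scn4b over Ank3 differed by -1.03 (adjusted p = 0.00306, exact permutation) and -1.05 (adjusted p = 0.0143). Ank3 over Fgf13 differed by 0.65 (adjusted p = 0.00408, exact permutation) and 0.53 (adjusted p = 0.0143), with 7 of 7 knock-in libraries above all wild-type ones. Of the other 9 pairs, 2 passed with 13 libraries (3 without wild type 1, with Scn2b over Ank3 at 0.97, adjusted p = 0.0371, exact permutation, and 3 without wild type 5, with Scn4b over Fgf13 at -0.46, adjusted p = 0.0283), Scn10a over Fgf13 at -0.88 (adjusted p = 0.0122, exact permutation) and Scn4a over Fgf13 at -0.50 (adjusted p = 0.0140). With 10 libraries Scn4a over Fgf13 passed (-0.47, adjusted p = 0.0222, exact permutation) and Scn10a over Fgf13 did not (-0.65, adjusted p = 0.0571). The pairs share genes and are not independent of each other or of the calls above. The 12 pairs were picked by those calls in the same libraries. Their passing therefore follows largely from the calls and is no separate evidence. How many pairs of other genes differed likewise was not counted.

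Set against 10 cardiomyocyte genes in the same library, the members separated differently. The measure was the log2 of a member's TPM over the geometric mean TPM of these genes, for the 6 members with a mean of at least 0.5 TPM, which leaves out Scn2b. The cardiomyocyte genes were themselves lower in knock-in, with a median log2 fold change of -1.03 with 13 libraries and -0.80 with 10. A gene with no change of its own thus rises on this measure, and how many of all tested genes did so was not counted. Ank3, at -0.06 by itself (log2, 13 libraries, edgeR), went from -8.88 ± 0.174 to -8.00 ± 0.398 (SD, n = 6 and 7) on this measure. The difference was 0.89, with 7 of 7 knock-in libraries above all wild-type ones (exact permutation, two-sided, adjusted p = 0.00350 over 6 members). With 10 libraries the difference was 0.61 (adjusted p = 0.0286, exact permutation), or adjusted p = 0.0571 when the smaller tail of that test was doubled. As Ank3 by itself did not pass, this rise does not show a change of Ank3 apart from the lower cardiomyocyte genes. Scn3b rose relative to the cardiomyocyte genes by 1.44 (adjusted p = 0.0140, exact permutation), and with 10 libraries the difference was 1.47 (adjusted p = 0.0571).

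For Scn10a the difference was -0.65 with 13 libraries and -0.57 with 10. Its mean was 0.867 TPM in wild type and 0.369 TPM in knock-in, so it met the minimum of 0.5 TPM only through the group where it was higher, and its value is given as a description with no test. Scn4a, Scn4b and Fgf13, all called lower in CPM, differed by -0.26, -0.14 and 0.24 (adjusted p = 0.150, 0.584 and 0.150, exact permutation). With 10 libraries these were -0.39, -0.43 and 0.08 (adjusted p = 0.0762, 0.154 and 0.562, exact permutation). The test did not separate the genotypes for these 3, which does not show that they moved in step with the cardiomyocyte genes.

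**Figure D4:**
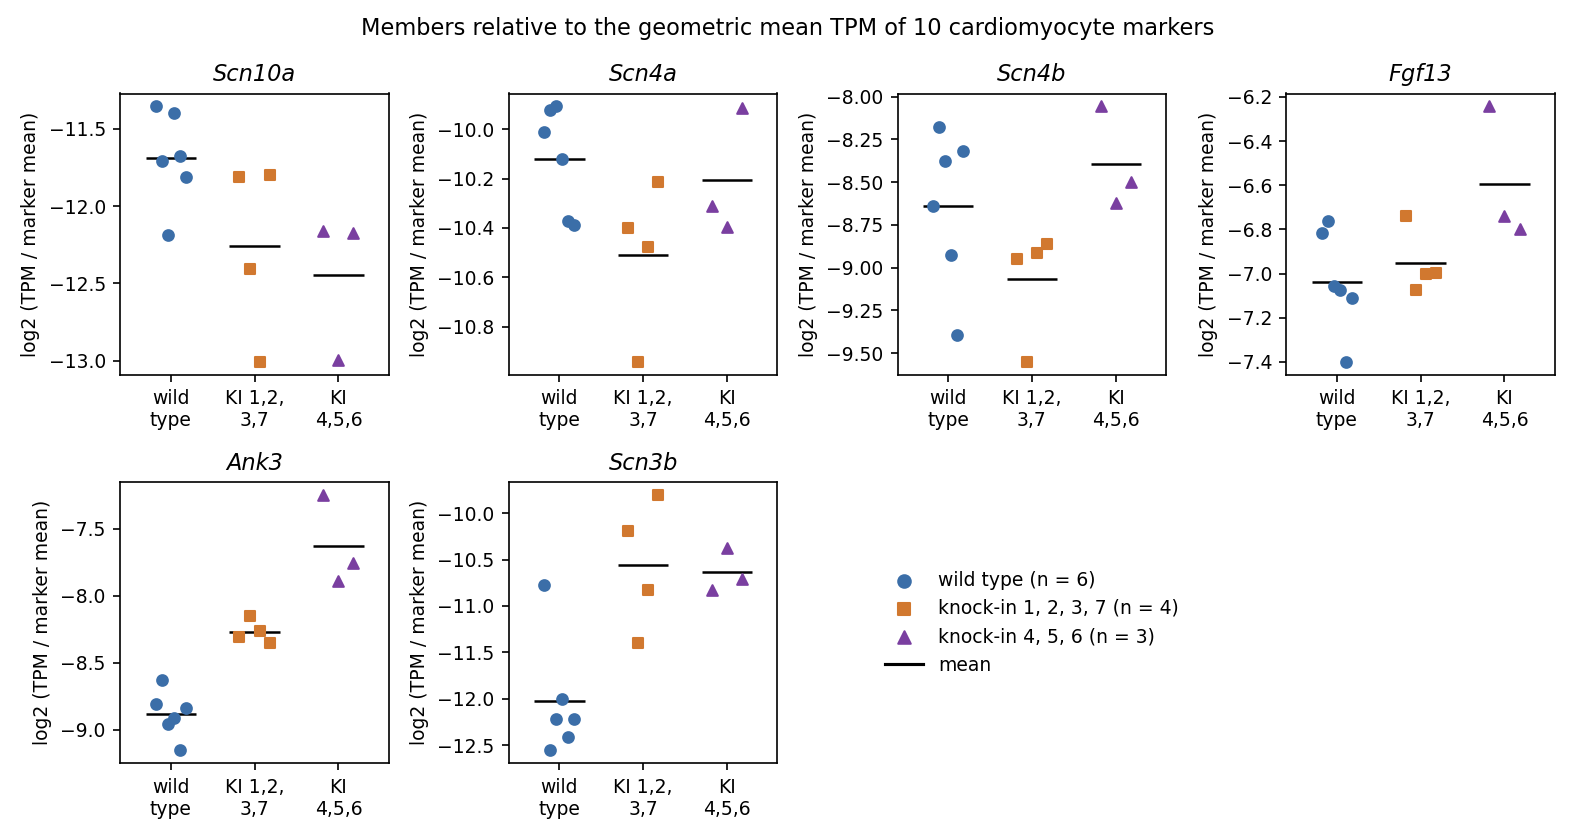
Log2 of member TPM over the geometric mean TPM of 10 cardiomyocyte genes (y axis, each panel on its own scale) for 6 members, by library group (x axis). Each point is 1 library and the line the mean of its group. All 7 knock-in points of Ank3 lie above the wild-type points, and the points of Scn4b and Fgf13 overlap between the groups. The 10 cardiomyocyte genes were themselves lower in knock-in.

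The tables also give a length per gene, which differed between libraries for 3 members, Ank3, Fgf13 and Scn3b, and was the same in all libraries for the other 4. For Ank3, a gene with many isoforms, it was 8218 ± 243 bases in wild type and 8805 ± 337 bases in knock-in (SD, n = 6 and 7), a difference of 587 bases (exact permutation, two-sided, adjusted p = 0.00524 over the 3 genes). The lengths were above every wild-type one in 6 of 7 knock-in libraries, knock-in 3 at 8424 bases lying below the wild-type maximum of 8532. With 10 libraries the difference was 604 bases (adjusted p = 0.0286, exact permutation, or 0.0571 with the smaller tail doubled). Fgf13 and Scn3b differed by 29.2 and 127 bases (adjusted p = 0.347 for both, exact permutation). Among the 6636 tested genes whose length varied, 53.0% were longer in knock-in, and 98.6% had a smaller rise than the 7.15% of Ank3. How the column was computed is not given in the sources used here, and this comparison was added after seeing the data.

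**Figure D5:**
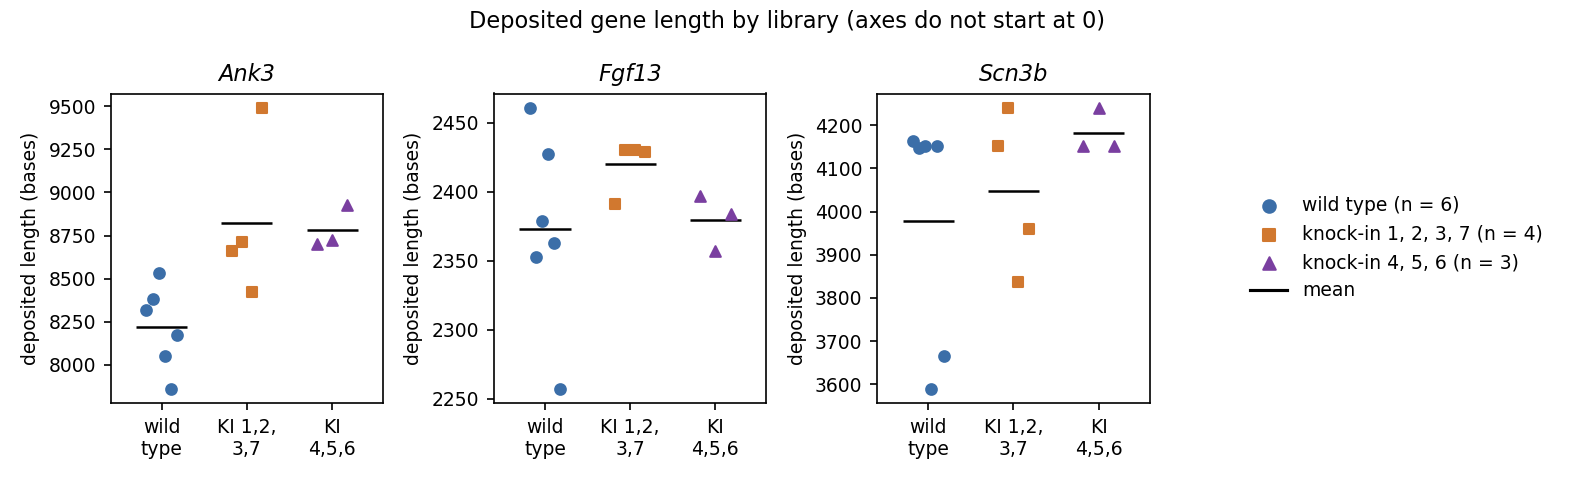
Deposited gene length in bases (y axis, not from 0) of Ank3, Fgf13 and Scn3b by library group (x axis). Each point is 1 library and the line the mean of its group; Ank3 runs from 7858 to 8532 bases in wild type and from 8424 to 9493 bases in knock-in.

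Other genes of the sodium channel pathway are given beside the members, in lists chosen with earlier results of these data known. Their counts stand beside 23.6% of all tested genes called higher and 21.0% lower with 13 libraries (22.3% and 21.3% with 10). Of 5 tested other alpha subunits and relatives, 2 were higher and 0 lower in both sets. Nalcn, a sodium leak channel, rose from 2.91 ± 0.717 to 7.55 ± 1.83 CPM (log2 fold change 1.37, adjusted p = 0.000190, edgeR) and by 1.57 with 10 libraries. Scn7a, an atypical sodium channel, rose from 78.2 ± 6.24 to 107 ± 27.8 CPM (log2 fold change 0.45, adjusted p = 0.0281, edgeR) and by 0.70 with 10. The median log2 fold change of the list was 0.45 in both sets, beside 0.08 and 0.02 for all tested genes. Of 3 other FGF homologous factors, 0 were called in either set, and 0 at an unadjusted p under 0.05 (edgeR), with medians of 0.07 and -0.04.

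Among 7 other ankyrins and spectrins, the relatives and partners of Ank3, 2 were higher and 3 lower with 13 libraries and 1 higher and 3 lower with 10. Ank2, the ankyrin of membrane domains outside the disc, fell by 0.83 (log2, adjusted p = 0.000877, edgeR) and by 0.58 with 10 libraries. Ank1, the ankyrin first described in red cells, fell by 0.68 (adjusted p = 0.00164, edgeR) and 0.49, while Sptan1, the spectrin alpha chain, rose by 0.48 (adjusted p = 0.00178, edgeR) and 0.46. The list's medians were -0.03 and 0.11.

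Of 19 binding partners and regulators of cardiac sodium channels, 3 were higher and 8 lower with 13 libraries and 2 and 8 with 10, with medians of -0.13 and -0.18. Camk2d, a kinase that phosphorylates the channel, fell by 0.81 (log2, adjusted p = 0.000149, edgeR) and by 0.69 with 10 libraries. Cav3, the caveolin of muscle, fell by 1.00 (adjusted p = 0.000333, edgeR) and 0.77. Rangrf, which helps channels reach the membrane, fell by 0.99 (adjusted p = 0.000528, edgeR) and 0.79.

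Of 7 genes of the sodium pump, the exchangers and their partners, 1 was higher and 3 lower in both sets, with medians of -0.24 and -0.26. Fxyd1, phospholemman, fell by 1.05 (log2, adjusted p = 0.000327, edgeR) and by 0.81 with 10 libraries. Of 14 transcription factors of conduction and channel genes, 3 were higher and 6 lower with 13 libraries and 4 and 5 with 10, with medians of 0.05 and 0.02. Snai1, a repressor of epithelial genes, rose by 1.29 (adjusted p = 0.000115, edgeR) and 1.39, Zfhx3 rose by 1.01 (adjusted p = 0.000628, edgeR) and 0.69, and Irx4, a ventricular factor, fell by 0.97 (adjusted p = 0.000203, edgeR) and 0.84.

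Markers of other cell types are given beside these genes, to be read against the 23.6% of all tested genes called higher with 13 libraries and 22.3% with 10. For fibroblasts, 1 of 6 markers was called higher with 13 libraries and 5 with 10, with summed levels of 1485 to 2117 TPM in wild type, 2351 to 4151 TPM in knock-in and 2993 to 4151 TPM in knock-in 1, 2, 3 and 7. For macrophages, 3 of 6 and 6 of 6 were called higher, with 649.4 to 834.1, 1079 to 2686 and 1282 to 2686 TPM in the same groups. For Schwann cells, 3 of 8 were higher and 1 lower with 13 libraries and 2 and 0 with 10, with 19.23 to 28.35, 21.76 to 92.54 and 33.91 to 48.45 TPM. The highest Schwann sum was that of knock-in 6, in which Sox10 made up 68.0 TPM. For the conduction system, 2 of 8 were higher and 3 lower with 13 libraries and 2 and 2 with 10, with 11.4 to 20.83, 14.63 to 27.15 and 15.13 to 19.06 TPM. Atrial genes summed to 737 to 4860 TPM in wild type, the highest again in wild type 1, and to 2189 to 11310 TPM in knock-in, or 2332 to 11310 TPM in knock-in 1, 2, 3 and 7, with 1 of 6 called higher in both sets. Nppa did not overlap between the groups, at 137 to 1530 TPM in wild type and 1890 to 8880 TPM in knock-in. Myl7, Sln, Myl4 and Mybphl did overlap, and the list's median log2 fold change was -0.27 and -0.08. In wild type 1 Nppa was at 1530 TPM, Sln at 1350, Myl7 at 1010 and Myl4 at 840, each the highest of wild type. No defining marker of these 5 lists was at 0 in every library. Their part in the members' values was not tested.

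Endothelial markers summed to 2975 to 3574 TPM in wild type and 2040 to 5290 TPM in knock-in, with 0 of 6 called with 13 libraries (1 lower, Fabp4, at an unadjusted p under 0.05 in edgeR) and 2 higher with 10. Pericyte and smooth muscle markers summed to 417.7 to 720.4 and 591.6 to 706.1 TPM, with 2 of 6 higher and 2 lower with 13 libraries and 2 and 1 with 10. Adipocyte markers summed to 13.05 to 125.2 and 6.154 to 134.8 TPM, with 0 of 4 called in either set, nor any at an unadjusted p under 0.05 (edgeR). Epithelial markers summed to 8.308 to 25.96 TPM in wild type, 13.75 to 32.48 TPM in knock-in 1, 2, 3 and 7, and 1760 to 2987 TPM in knock-in 4, 5 and 6, with 3 of 3 called higher with 13 libraries and 0 with 10 (1, Krt18, at an unadjusted p under 0.05 in edgeR).

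Within the groups, the genes whose library-to-library deviations in log2 CPM were most like those of each member were taken from 13890 genes over 13 libraries, deviations being from the mean of wild type, of knock-in 1, 2, 3 and 7, or of knock-in 4, 5 and 6. Ank3 was most like Ndufs7 (r = 0.953) and Tsfm (r = 0.951), and Scn3b most like Fzd2 and Nlgn2 (r = 0.933 for both). Fgf13 was most like Bphl (r = 0.914) and Gadd45gip1 (r = 0.908). Scn2b was most like Shank2 (r = 0.891) and Pcbp3 (r = 0.887), and Scn4b most like Cacna1s and Alkal2 (r = 0.886 for both). Scn10a was most like Caap1 (r = 0.890) and Lefty1 (r = 0.861), and Scn4a most like Relt (r = 0.860) and Cntrl (r = 0.857). These are the highest of many correlations, the libraries share depth and scaling across genes, and no test goes with them.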

How the data were processed

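Stranded libraries of poly(A) RNA were made from right ventricle, per the labels' protocols. DRAGEN and GRCm39 are named in the submitters' processing notes; the annotation, and whether counting used strand, were not found in these sources. The authors deposited 1 table per library with expected counts (estimated, so some are fractional), TPM and lengths per gene, per the file headers.

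Estimated counts were rounded, filtered with filterByExpr, scaled by TMM and tested with edgeR 4.0.16 (R 4.3.3; glmQLFit, robust, no covariate), with Benjamini-Hochberg adjustment over all tested genes. SE is the absolute log2 fold change over the root of F. Shares, ratios and lengths were tested by exact permutation over libraries, two-sided on the absolute difference of means (scipy 1.17.1), and adjusted within each family. The smallest p possible is 0.000583 with 13 libraries and 0.00476 with 10. This form of the p was settled after it and the form that doubles the smaller tail had both been seen; the latter is given as an alternative. Scripts were tested on simulated data with 200 changed genes. Of 2-fold changes 57% were recovered with 13 libraries and 80% with 10, and of 1.5-fold changes 11% and 44%. Of the simulated calls 4.23% and 5.34% were false. A member that was not called may thus still have changed. Alternatives were DESeq2 1.42.0 and its size factors, library totals, limma-voom (limma 3.58.1), other filters, log2(TPM + 1), log2(TPM + 0.1), length offsets, a replicate block, an indicator for knock-in 4, 5 and 6, and each library left out.

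Named genes are the members, the 3 called genes with the smallest p of each related list, the 2 genes most like each member, Dsg2, and listed cell type markers, which were picked for naming after their values were seen. Members and lists were chosen with earlier results of these data known. Some genes covered by this rule are not reported here.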

Additional observations from a re-analysis of the deposited data

Results flagged for a closer look

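Of 38 groups of values checked for a library far from the rest, 3 held one, and chance alone marks about 1 in 20 such groups. Scn3b was at 4.99 CPM in wild type 1, with the nearest wild-type library at 2.35. Relative to the cardiomyocyte genes, Scn3b was at -10.78 (log2) in wild type 1, with the nearest wild-type library at -12.0. Relative to the same genes, Fgf13 was at -6.243 (log2) in knock-in 4, with the nearest knock-in library at -6.739.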

How the results depend on the processing

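Scn10a, Scn4a, Scn4b and Fgf13 were called lower, 4 of 7 members, under every alternative run and with each library left out, in both sets. The number called higher, 0 as reported, became 1 with limma-voom, log2(TPM + 1), log2(TPM + 0.1) and without wild type 1 (13 libraries). With 10 libraries it became 1 with library totals, limma-voom, log2(TPM + 1) and without knock-in 2, and 2 with log2(TPM + 0.1) and without wild type 1. Scn3b was the gene called, at 0.38 (adjusted p = 0.0382) and 0.52 (0.00767) with log2(TPM + 1), 0.72 (0.0302) and 0.96 (0.00819) with log2(TPM + 0.1), 0.75 and 0.83 with limma-voom, and 0.90 (0.0271) with library totals and 10 libraries. Scn2b joined it at 0.79 (0.0326) with log2(TPM + 0.1) and 10 libraries. Ank3 turned positive with library totals (0.18 and 0.17), log2(TPM + 1) (0.22 and 0.17), log2(TPM + 0.1) (0.25 and 0.19) and without wild type 2 (0.018), none of them called. With each library left out in turn, Ank3 ran from -0.15 to 0.018 and from -0.17 to -0.004, Scn3b from 0.23 to 0.68 and from 0.47 to 0.96, and Scn2b from 0.17 to 0.69 and from 0.38 to 0.92. The cause of these shifts was not tested.

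Relative to cardiomyocyte genes, the Scn3b difference (1.47) no longer passed without knock-in 4, 5 and 6, and with the smaller tail doubled there neither did that of Ank3 (0.61). Scn10a, given as a description, was at -0.57 there. Leave-one-out values ran from -0.75 to -0.53 for Scn10a and from -0.34 to -0.17 for Scn4a, which passed without knock-in 6. Scn4a over Scn4b was 0.042 without knock-in 4, 5 and 6, and Scn2b over Scn3b was -0.06 without wild type 3 and -0.076 without knock-in 2; none of these ratios was called.

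All tested genes gave 3442 higher and 3060 lower calls with 13 libraries and 3241 and 3099 with 10. They gave 6110 and 1661 (13) and 6049 and 1528 (10) with library totals, 7665 and 1087 and 7737 and 924 with log2(TPM + 1), and 7840 and 1098 and 7704 and 933 with log2(TPM + 0.1). The replicate block gave 2270 and 2541 with 13 libraries and 1385 and 1400 with 10. The numbers did not pair the libraries: same-numbered libraries correlated at -0.113 to 0.0845 in their deviations and 0 of 6 matched their own number best. With the block, Scn10a was at -1.79 and -1.26, Scn4a at -1.35 and -1.27, Scn4b at -1.20 and -1.35 and Fgf13 at -0.81 and -0.66, and it changed no call among the members.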
